A study of Mus musculus with 24 samples.

Results

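Bone marrow-derived macrophages (BMDMs) grown to resemble alveolar macrophages were compared between AhR-deficient and wildtype mice after stimulation with LPS, over all genes, and the genes described here are those outside eicosanoid synthesis. By the genotype and treatment labels, 12 of the 24 libraries of the series entered this comparison, 6 from wildtype cells (WT LPS, library numbers 21, 22, 29, 30, 37 and 38) and 6 from AhR-deficient cells (AhR-KO LPS, library numbers 23, 24, 31, 32, 39 and 40). The other 12 libraries, 6 of each genotype, came from unstimulated cultures, shared the estimate of the spread in 1 fit, and serve here to set the difference after LPS beside that without it. The question of the study was what AhR does for the making of eicosanoids, lipid mediators derived from arachidonic acid, in such cells. Marrow was taken from C57/B6/J wildtype mice and from AhR KO/KO mice (B6.129-Ahr tm1Bra/J) aged 7 to 14 weeks, with 6 animals per group in 1 experiment and both sexes used. The knockout was carried by all cells of the animal, so the precursors in the marrow lacked AhR before culture began. All 4 groups were grown with GM-CSF at 10 ng/ml and TGF-β at 2 ng/ml. LPS was given on day 6 at 97 EU/ml for 24 h, and the treatment protocol ended with 10 min of the Ca2+ ionophore A23187 at 5 µM. Polyadenylated RNA was sequenced with a kit that keeps the strand.

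AhR is a transcription factor that waits in the cytosol, is activated by small ligands such as tryptophan metabolites, and binds DNA together with ARNT at sites with the core GCGTG. Its best known target genes include Ahrr, a repressor that feeds back on AhR, and genes of the cytochrome P450 family 1. LPS acts through the receptor TLR4, which switches on NF-kB and IRF3 and thereby inflammatory cytokines, chemokines and the type I interferon response. Marrow cultures with GM-CSF can hold dendritic cells and granulocyte precursors beside macrophages, and a bulk library sums over all of them.

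The 12 libraries held 47904679 to 70074584 counts on genes. Levels are given as CPM, counts scaled to 1000000 per library after scaling by TMM, the normalization of edgeR. Where 3 levels of a gene are given in a row, they are the lowest, the median and the highest of 6 libraries. Of 7 library measures tested between the genotypes by exact two-sided permutation, which allows no p below 0.00216, the lowest p for a difference in means was 0.0238, for the TMM factor (0.804 to 1.01 in WT LPS and 0.704 to 0.875 in AhR-KO LPS, adjusted p = 0.106), and for medians it was 0.0195, unadjusted and for the same measure. Library 38 of WT LPS had almost no counts on Y-linked genes, whereas the other 11 had them, and among the unstimulated libraries only WT library 34 lacked them in the same way. No label ties a stimulated culture to an unstimulated one of the same animal, so all 24 libraries were treated as separate, also in the tests of interaction. The library numbers form 3 runs of 8 with 2 libraries of each group in every run, and no label names a run as a batch. In both groups, pairs of libraries differed less within a run (chi-square per degree of freedom of 16.3 to 193 over gene counts) than across runs (182 to 1147). The fit used here has no term for the run, and when the run was added as a factor 1663 genes were DEGs, among them 1358 of the 1387 reported here. No label gives the sex of a library. Without libraries 34 and 38, 1346 genes were DEGs, 1226 of them among those reported. Of the genes named below, 7 then lost their call, which were Irf4, Ccr7, Relb, Car4, Irf7, Il12b and Fam110c. With Y-linked expression as a covariate 1352 genes were DEGs, 1296 of them among those reported.

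The gene targeted by the knockout was counted in both genotypes. Ahr (chr12:35497974-35535038, mm10, minus strand) had 6.58, 18 and 27.9 CPM in WT LPS and 21.4, 39.2 and 63.8 CPM in AhR-KO LPS. It was thus not lower in the knockout at the level of the whole gene (log2 fold change 1.36, standard error 0.35, adjusted p = 0.011, edgeR's quasi-likelihood test with Benjamini-Hochberg adjustment, as for every adjusted p below unless another test is named). Counts per gene include the exons that the knockout allele keeps, so they do not check the deletion. Ahrr (chr13:74211118-74292331, mm10, minus strand) had 27.2, 61.6 and 96.6 CPM in WT LPS and 0, 0.20 and 0.421 CPM in AhR-KO LPS. The 2 genotypes were far apart in every library (log2 fold change −8.19 ± 0.62, where ± after a log2 fold change is its standard error, adjusted p = 4.93e-09), which checks the labels of all 12 libraries. Cyp1b1, another target and a member of cytochrome P450 family 1, had 7.0, 20.1 and 25.7 CPM against 0.788, 2.33 and 7.42 CPM (log2 fold change −2.61 ± 0.71, adjusted p = 0.014). Tiparp, a target that encodes a mono-ADP-ribosyltransferase, went the other way, with 54.6, 77.6 and 93.6 CPM in WT LPS and 105, 136 and 214 CPM in AhR-KO LPS. Its adjusted p was 4.33e-04, but its log2 fold change of 0.96 ± 0.17 was short of the 2-fold minimum set for a differentially expressed gene (DEG). Nqo1, which encodes a quinone reductase, had a log2 fold change of −0.75 ± 0.24 (adjusted p = 0.0401) and was not a DEG either. Nor was Ugt1a6a, at −0.28 (adjusted p = 0.92). Only 5 of the 9 target genes listed passed the filter on low counts and were tested, and 2 of them were DEGs.

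The 250 bases before the annotated start of 4 DEGs are shown, with the AhR core motif in capitals (GCGTG, or CACGC where the motif lies on the opposite strand). They were chosen because Ahrr is the classical target, Mfge8 and Tmem123 were among the most abundant genes that fell, and Timp1 had one of the largest increases. The sequences are those of RefSeq for GRCm38.p6, which is the build mm10, each written 5′ to 3′ on the strand of its gene.
Ahrr, chr13:74292332-74292581, minus strand: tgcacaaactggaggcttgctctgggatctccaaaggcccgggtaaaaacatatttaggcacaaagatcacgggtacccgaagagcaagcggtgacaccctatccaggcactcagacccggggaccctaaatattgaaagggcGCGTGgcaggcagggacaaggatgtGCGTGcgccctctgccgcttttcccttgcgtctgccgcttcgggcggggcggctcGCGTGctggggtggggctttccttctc
Mfge8, chr7:79149061-79149310, minus strand: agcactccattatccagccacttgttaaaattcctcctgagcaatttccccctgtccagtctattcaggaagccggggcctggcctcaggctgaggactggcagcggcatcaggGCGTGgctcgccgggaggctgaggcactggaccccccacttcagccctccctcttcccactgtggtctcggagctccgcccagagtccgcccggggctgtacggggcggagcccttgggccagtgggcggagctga
Tmem123, chr9:7763915-7764164, plus strand: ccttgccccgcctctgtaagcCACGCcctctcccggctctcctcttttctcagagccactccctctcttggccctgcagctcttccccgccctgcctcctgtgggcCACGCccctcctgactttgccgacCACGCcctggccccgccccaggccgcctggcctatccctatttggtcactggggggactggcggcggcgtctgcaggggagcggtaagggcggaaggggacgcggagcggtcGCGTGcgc
Timp1, chrX:20869916-20870165, plus strand: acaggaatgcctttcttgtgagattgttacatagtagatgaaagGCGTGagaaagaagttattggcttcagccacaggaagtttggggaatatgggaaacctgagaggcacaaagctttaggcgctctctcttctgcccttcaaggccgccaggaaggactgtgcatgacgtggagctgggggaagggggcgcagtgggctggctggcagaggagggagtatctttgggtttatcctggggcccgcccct
In the window of Ahrr the motif stood 3 times, beginning 107, 82 and 27 bases before the start. Tmem123 had 4 matches, beginning 229, 144, 120 and 8 bases before the start. Mfge8 had 1 match, 136 bases before the start, and so had Timp1, 206 bases before the start, although the former fell and the latter rose. Of all 32851 RefSeq windows of this length, 28.2% held at least 1 match, 2.77% held 3 or more and 0.846% held 4 or more. Over the RefSeq windows of 300 bases, which add 50 bases after the start, 54.2% of the 10527 tested genes with a window held a match, as did 45.5% of lower and 34.96% of higher DEGs with one. A comparison of these shares was void, since only 63.5% of tested genes had a window. The window of Il22, a gene without a count in the knockout, held none. A match is a description of letters and does not show binding.

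After LPS, 1387 of 16593 tested genes passed as DEGs between the genotypes (8.36%), which required a 2-fold difference or more together with an adjusted p not above 0.05. Of these, 360 were higher in AhR-KO LPS (2.17%) and 1027 were lower (6.19%). Only 9 of them belong to the list of eicosanoid synthesis genes, so 1378 lay outside it. The decreases were also larger than the increases. Among the lower DEGs, 612 had a log2 fold change of −2 or less, 358 of −3 or less and 128 of −5 or less. Among the higher DEGs, 131 reached 2, 38 reached 3 and 7 reached 5. The median log2 fold change was −2.36 for lower and 1.72 for higher DEGs, and over all tested genes it was −0.05. Lower DEGs were the rarer transcripts, with a median level of 3.84 CPM in the group with the higher mean, against 18.3 CPM for higher DEGs. For 46 lower DEGs not 1 count was found in the 6 AhR-KO LPS libraries, and for 3 higher DEGs none in the 6 WT LPS libraries. The libraries of the 2 genotypes did not overlap for 795 DEGs, 207 higher and 588 lower (4.79% of all tested genes, against 7.11% without overlap whether DEG or not), and 1363 of the 1387 kept 1 sign in all 3 runs of library numbers. When libraries were scaled by their total size only, the median over all genes moved to −0.26 and 236 of 1587 DEGs were higher (14.9%, against 25.96% with TMM). Of the DEGs named here, 13 were not called with that scaling, which were Ahr, Irf4, Il15ra, Car4, Ctsk, Irf7, Rsad2, Cmpk2, Xaf1, Il12b, Hk3, Slc2a1 and Igsf8.

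**Figure D1:**
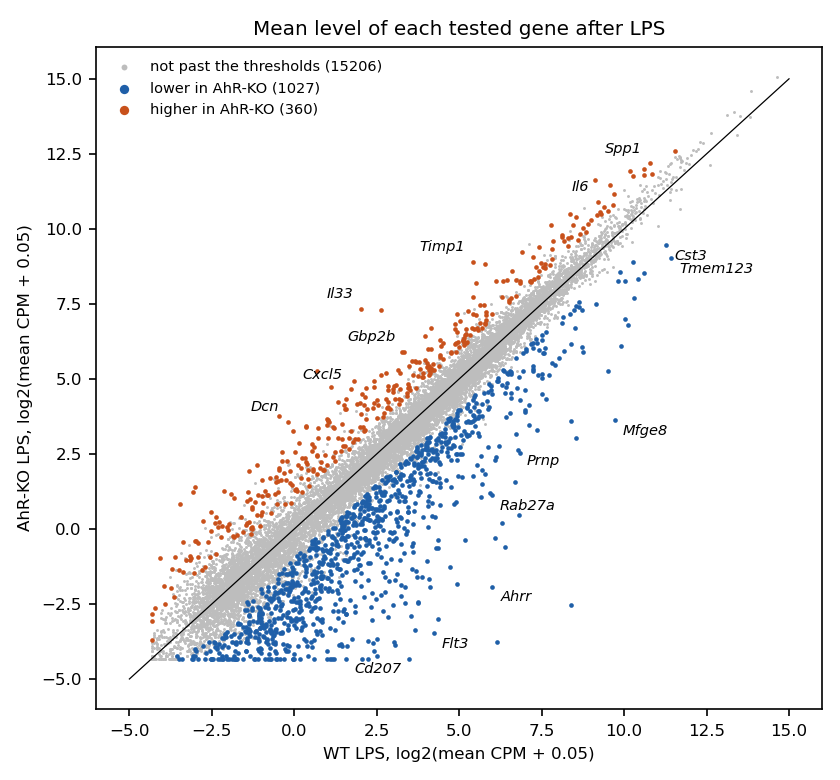
Mean level of each of the 16593 tested genes in WT LPS (x axis) and AhR-KO LPS (y axis), both as log2(mean CPM + 0.05), n = 6 libraries each, with 360 higher DEGs in orange, 1027 lower DEGs in blue and all other genes in grey. The blue points spread further from the line of equal levels than the orange ones, and the lowest row of blue points holds genes without a count in AhR-KO LPS.

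Genes that mark dendritic cells and Langerhans cells were among the largest losses of abundant transcripts. Of 11 tested markers of conventional dendritic cells 5 fell and 1 rose, with a median log2 fold change of −0.95, and of 7 Langerhans cell markers 3 fell and none rose, with a median of −2.47. Flt3, the receptor for the growth factor of dendritic cells, had 3.98, 19.8 and 29.6 CPM in WT LPS and 0, 0.00983 and 0.141 CPM in AhR-KO LPS (log2 fold change −8.86 ± 0.98, adjusted p = 1e-06). Cd207, which encodes langerin, the lectin of Langerhans cell granules, had 0.471, 1.04 and 10.5 CPM in WT LPS and no count in any AhR-KO LPS library, so it was at least 289-fold lower against a floor of 3 counts over the group (139-fold without WT library 37). Epcam, the adhesion molecule of epithelial and Langerhans cells, had 6.42, 10.5 and 17.5 CPM against 0, 0.0505 and 0.315 CPM. None of these genes overlapped between the genotypes, although single libraries moved the fitted log2 fold changes. That of Flt3 was −9.95 without AhR-KO library 23, that of Epcam −8.09 without AhR-KO library 31, and that of Cd207 moved from −10.44 to −9.42 without WT library 37. Mfge8, which encodes a secreted bridge between dying cells and phagocytes, had 655, 741 and 1313 CPM in WT LPS and 4.75, 11.4 and 25.3 CPM in AhR-KO LPS (log2 fold change −6.09 ± 0.47, adjusted p = 6.89e-09). Irf8, a transcription factor needed for a main branch of dendritic cells, had 474, 1098 and 1303 CPM against 32.4, 49.2 and 183 CPM (−3.79 ± 0.38, adjusted p = 3.06e-07). Cd24a, a small surface glycoprotein, had 287, 391 and 646 CPM against 44.1, 55.8 and 86.9 CPM. Dpp4, a surface peptidase, fell by 4.79 on the log2 scale. The 1 marker that rose was Irf4, a transcription factor of the other branch of dendritic cells and of alternatively activated macrophages (log2 fold change 1.03 ± 0.30, adjusted p = 0.0246). Its call was lost without any one of libraries 31, 32, 37 and 38 (log2 fold change 0.83, 0.95, 0.89 and 0.98).

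Of 14 tested genes of the maturation and migration of dendritic cells 7 fell and 1 rose, with a median log2 fold change of −1.16. Tmem123, which encodes a mucin-like receptor of activated dendritic cells, had 954, 2513 and 5581 CPM in WT LPS and 344, 443 and 885 CPM in AhR-KO LPS (log2 fold change −2.38 ± 0.35, adjusted p = 3.86e-05). Fscn1, the actin bundler of dendrites, had 92.7, 707 and 1494 CPM against 1.73, 14.2 and 153 CPM (−4.25 ± 0.93, adjusted p = 0.00251). Stat4, the mediator of IL-12 signals, had 3.41, 27.8 and 44.8 CPM against 0.155, 0.983 and 9.87 CPM (−3.37 ± 0.86). For the last 2 genes AhR-KO library 31 lay above WT library 37, and all other libraries were separate. Of the exon bases of Stat4, 26.7% are shared with an annotated gene on the same strand. Socs2, a feedback inhibitor of cytokine signals, fell by 1.70 with no overlap. Ccr7, the receptor that guides dendritic cells to lymph nodes, had 541, 1375 and 2414 CPM against 96.5, 224 and 884 CPM (−2.09 ± 0.63, adjusted p = 0.0287), and Relb, a subunit of NF-kB, had a log2 fold change of −1.06 ± 0.21. Both calls rested on single libraries. Ccr7 was lost without any one of 21, 23, 24, 38, 39 and 40 (adjusted p from 0.0504 to 0.0667), and Relb fell short of 2-fold without 21, 22 or 38. The member that rose was Il15ra, which presents IL-15 (log2 fold change 1.05 ± 0.19, adjusted p = 4.73e-04), and it was short of 2-fold without library 29 (0.95). Without AhR-KO library 31, which had the highest level of each of Fscn1, Stat4 and Ccr7 in its group, 9 members of the list fell, and the log2 fold changes of these 3 genes were −5.60, −4.56 and −2.73. Without WT library 21 or 38, 4 members fell.

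Of 14 tested genes of antigen presentation by MHC class II 5 fell and none rose, and 4 had a log2 fold change above 0 (median −0.66). H2-Aa, an alpha chain, had 1094, 1409 and 2449 CPM in WT LPS and 233, 300 and 765 CPM in AhR-KO LPS (−2.07 ± 0.33, adjusted p = 9.15e-05). H2-Eb1, a beta chain, had 708, 899 and 1847 CPM against 76.1, 109 and 275 CPM (−3.03 ± 0.39, adjusted p = 7.16e-06). H2-DMb2, part of the chaperone that loads peptides, had 30.8, 39.5 and 76.9 CPM against 5.72, 11.8 and 13.8 CPM, and H2-Eb2, another beta chain, fell by 5.44 from a median of 3.19 CPM (4.64 without WT library 38). No library of 1 genotype reached into the range of the other for these 4 genes. Of 16 MHC class I genes none passed the thresholds with edgeR, DESeq2 or limma-voom, although 6 had an unadjusted p below 0.05 and all 16 had a log2 fold change above 0 (median 0.38, and 0.15 when scaled by total library size). Cst3, which encodes the protease inhibitor cystatin C and is abundant in dendritic cells, had 1420, 2471 and 4037 CPM against 388, 551 and 1550 CPM (−1.83 ± 0.31, adjusted p = 2.14e-04).

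In bulk samples, fewer cells of a type and less RNA of these genes per cell cannot be told apart. The summed level of the conventional dendritic cell markers was 1180 to 2071 CPM in WT LPS and 305 to 922 CPM in AhR-KO LPS, and that of the Langerhans cell markers was 905 to 1532 CPM against 195 to 298 CPM. Each sum followed few genes of its list. Most of the Langerhans sum in WT LPS was Mfge8 (655 to 1313 CPM, against 4.75 to 25.3 CPM in AhR-KO LPS). Most of the dendritic cell sum in WT LPS was Irf8 (474 to 1303 CPM, against 32.4 to 183 CPM) and Cd24a (287 to 646.5 CPM, against 44.1 to 86.9 CPM). The sums thus do not show a decrease across all members. The macrophage markers, of which 1 of 12 rose and none fell, summed to 14581 to 32995 CPM and 20246 to 22403 CPM. Their median log2 fold change was −0.07, with 4 above 0 and 8 below. Markers of alveolar macrophages, of which 3 of 16 rose and none fell, summed to 5517 to 10107 CPM and 10075 to 13296 CPM. Their median log2 fold change was 0.08, with 9 above 0 and 7 below, so the list was not shifted as a whole. Both genotypes thus carried the macrophage markers that their label names. The medians of the macrophage sum were 19412 CPM in WT LPS and 21296 CPM in AhR-KO LPS. Those of the alveolar macrophage sum were 6544 and 11364 CPM, and there the ranges met only at WT library 29 and AhR-KO library 40.

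**Figure D2:**
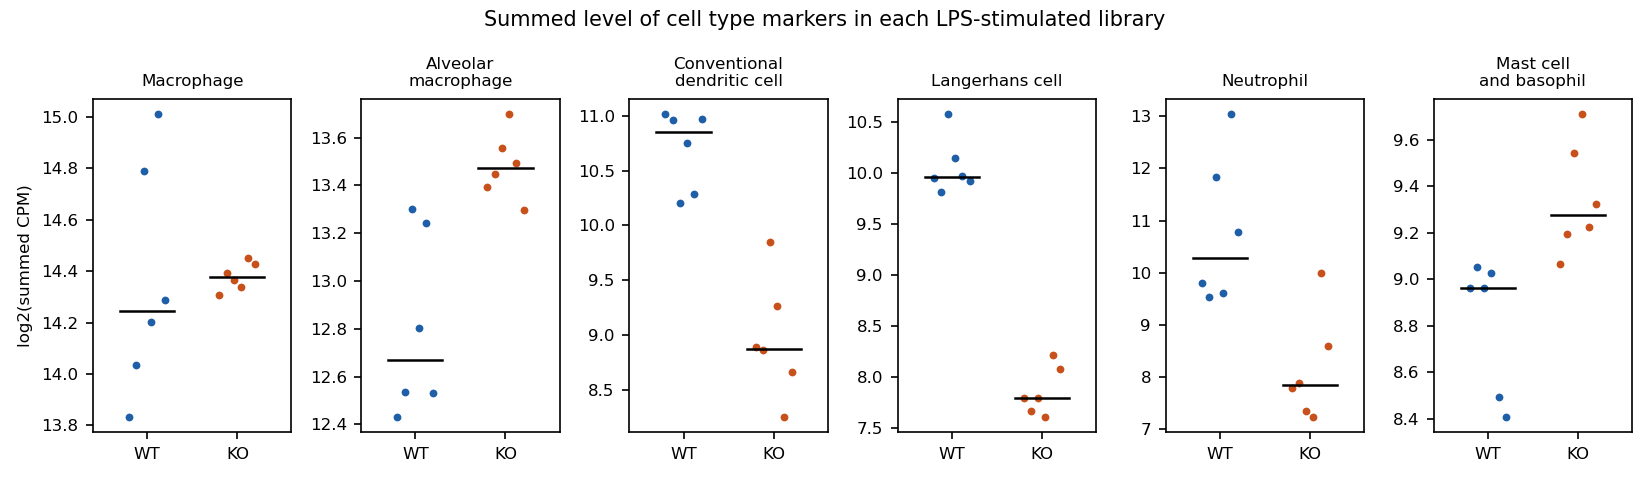
Summed level of the markers of 6 cell types in each LPS-stimulated library, as log2(summed CPM), with 6 points per genotype and a line at the median. Macrophage sums overlapped between WT and AhR-KO, and the mast cell and basophil sum was higher in AhR-KO. The dendritic and Langerhans cell sums were lower in every AhR-KO library. In WT, the former was mostly Irf8 and Cd24a and the latter mostly Mfge8.

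Of 12 tested neutrophil markers 8 fell and none rose, with a median log2 fold change of −2.90, and their sum was 744 to 8442 CPM in WT LPS and 150 to 1024 CPM in AhR-KO LPS. S100a9, a subunit of the antimicrobial protein calprotectin, had 262, 506 and 3587 CPM against 34, 57.0 and 353 CPM (−3.30 ± 0.75, adjusted p = 0.00368). Its partner S100a8 had 309, 667 and 4264 CPM against 80.3, 131 and 586 CPM (−2.62 ± 0.72, adjusted p = 0.0158). The ranges of both overlapped, and the spread among wildtype libraries was more than 10-fold. Ngp, a neutrophil granule protein, had 57.1, 102 and 478 CPM against 10.8, 15.5 and 46.7 CPM without overlap, and the granule protein lactoferrin, encoded by Ltf, had 7.78, 28.9 and 288 CPM against 3.64, 5.13 and 7.38 CPM. Single libraries weighed on these values. Without WT library 37 the log2 fold change of S100a8 was −1.70 (adjusted p = 0.0858) and that of S100a9 was −2.44. Without AhR-KO library 39 they were −3.30 and −4.12, and without WT library 29 that of Ltf was −2.27. Cebpe, the transcription factor of granule formation, was steadier, with 4.75, 5.55 and 6.69 CPM against 0.728, 1.48 and 2.31 CPM (−1.88 ± 0.28, adjusted p = 3.76e-05). Mmp8, the collagenase of neutrophil granules, had 30.7, 140 and 263 CPM against 7.61, 10.1 and 15.5 CPM (−3.66 ± 0.39, adjusted p = 6.98e-07), and Cxcr2, their chemokine receptor, fell by 2.43. The monocyte antigens Ly6c2 and Ly6i, 2 members of a family of close copies whose reads may be split between them, had medians of 894 and 961 CPM in WT LPS and 295 and 358 CPM in AhR-KO LPS.

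Of 11 mast cell and basophil markers 8 fell and none rose (median −2.17). Gata2, a transcription factor of mast cells and their precursors, had 1.49, 7.55 and 12.1 CPM in WT LPS and 0.0191, 0.171 and 0.343 CPM in AhR-KO LPS (−5.18 ± 0.79, adjusted p = 5.92e-05). Mcpt2, a mast cell protease, had 3.87, 4.84 and 10.2 CPM against 0.0197, 0.444 and 1.57 CPM, and without library 39 its log2 fold change was −3.92 in place of −3.33. Kit, the stem cell factor receptor, had 9.0, 15.8 and 21.8 CPM against 1.90, 3.73 and 8.04 CPM, and Cpa3, which encodes a carboxypeptidase of mast cell granules, fell by 2.17. Despite this, the summed level of the list was higher in AhR-KO LPS, at 535 to 838 CPM against 339 to 531 CPM. That sum was mostly Hdc, the enzyme that makes histamine, which macrophages also express after LPS. Hdc had 312, 444 and 477 CPM in WT LPS and 528, 611 and 823 CPM in AhR-KO LPS (0.66 ± 0.28, adjusted p = 0.156). Whether a change in the number of such cells contributed to the lower genes was not tested.

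Several lower DEGs outside the cell type markers had some of the smallest p of all genes. Rab27a (chr9, mm10), a GTPase that brings secretory vesicles to the plasma membrane, had 34.1, 66.1 and 87.6 CPM in WT LPS and 1.47, 2.14 and 2.61 CPM in AhR-KO LPS (−4.89 ± 0.27, adjusted p = 2.01e-11). Prnp, the cellular prion protein, had 60.7, 103 and 211 CPM against 5.47, 5.86 and 8.10 CPM (−4.16 ± 0.25, adjusted p = 7.57e-11). Tspan2, a tetraspanin of the membrane, had 4.39, 7.95 and 12.3 CPM against 0.0573, 0.125 and 0.177 CPM. The genotypes did not overlap for any of these 3 genes. Limd2, a LIM domain protein tied to cell motility, had 28.9, 32 and 39.6 CPM against 3.79, 5.72 and 7.07 CPM (−2.60 ± 0.15, adjusted p = 4.23e-11). Hmgn3, a nucleosome-binding protein, fell by 4.79, Ppm1j, a protein phosphatase, by 4.26, and Slc46a3, a lysosomal transporter, by 3.66 on the log2 scale. Gga2, an adaptor that sorts cargo at the Golgi, fell from 151, 199 and 255 CPM to 42.4, 69.5 and 77.6 CPM (−1.57 ± 0.14, adjusted p = 4.25e-08).

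The largest decreases by fitted fold change were genes that AhR-KO libraries hardly expressed. Apol7c, of the apolipoprotein L family, had 87.5, 390 and 530 CPM in WT LPS and 0, 0.0808 and 0.354 CPM in AhR-KO LPS (−11.43 ± 1.03, adjusted p = 7.22e-08), and the related Gm8221 had 8.54, 74.7 and 138 CPM against 0, 0.00983 and 0.101 CPM. Without AhR-KO library 31 the estimate for Apol7c was −12.17, and without AhR-KO library 23 that for Gm8221 was −12.77. These 2 genes are close copies, and their shares of the reads are uncertain. Ripk4, a kinase of keratinocytes, Gcsam, a signalling adaptor of germinal centre B cells, Rtn1, a reticulon of the endoplasmic reticulum, and Il22, a cytokine that acts on epithelia, had no count in any AhR-KO LPS library. Against the floor they were at least 457-, 404-, 221- and 1098-fold lower. Their WT medians were 5.30, 3.38, 2.30 and 8.40 CPM. Kmo and Haao, enzymes of the kynurenine pathway that turns tryptophan into AhR ligands and nicotinate precursors, fell by 7.09 and 5.50, and 4 of 10 genes of that pathway were lower and none was higher.

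The higher DEGs included Timp1 and several abundant transcripts. Timp1 (chrX, mm10), the inhibitor of matrix metalloproteinases, had 30.7, 41.0 and 64.0 CPM in WT LPS and 247, 478 and 698 CPM in AhR-KO LPS (3.48 ± 0.27, adjusted p = 6.89e-09). Procr, the receptor of protein C, had 1114, 1395 and 2318 CPM against 3138, 3749 and 5453 CPM (1.37 ± 0.19, adjusted p = 1.65e-05). Every AhR-KO library lay above every WT library for both genes. Pros1, the cofactor of protein C, had 4.50, 7.58 and 9.05 CPM against 18.6, 25 and 38 CPM (1.91 ± 0.18, adjusted p = 1.12e-07). Cav1, the coat protein of caveolae, had 722, 1207 and 1394 CPM against 3512, 3926 and 4243 CPM (1.75 ± 0.21). Vcam1, which holds leukocytes by their integrins, had 21.6, 55.4 and 67.0 CPM against 136, 178 and 227 CPM (1.83 ± 0.23, adjusted p = 6.12e-06), and Edn1, the vasoconstrictor endothelin, had 1.15, 1.94 and 2.57 CPM against 6.65, 11.4 and 17.1 CPM. Acvrl1, a receptor of the TGF-β family, had 18.8, 28.8 and 45.6 CPM against 82.0, 89.8 and 132 CPM (1.79 ± 0.19, adjusted p = 7.26e-07). Spp1, the cytokine osteopontin, was among the most abundant, with 951, 1686 and 2678 CPM against 2178, 4978 and 7249 CPM (1.40 ± 0.28, adjusted p = 0.00125), and 18.8% of its exon bases are shared with an annotated gene on the same strand. Dcn, a matrix proteoglycan, had 0.456, 0.646 and 1.63 CPM against 8.76, 10.3 and 21.2 CPM. It is a marker of stromal cells, and the other 6 tested markers of that list did not pass the test, with sums over the list of 2.20 to 17.4 CPM in WT LPS and 12.6 to 34 CPM in AhR-KO LPS. Of 15 tested matrix metalloproteinases and inhibitors 1 rose and 2 fell (median −0.02), and of 14 genes of the extracellular matrix 2 rose and none fell (median −0.07). Mmp2, a gelatinase, had 17.8, 47.1 and 86.5 CPM in WT LPS and 4.08, 10.1 and 10.4 CPM in AhR-KO LPS (−2.53 ± 0.48, adjusted p = 6.65e-04), and Itgae, the integrin chain of mucosal dendritic cells, fell by 4.90.

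**Figure D3:**
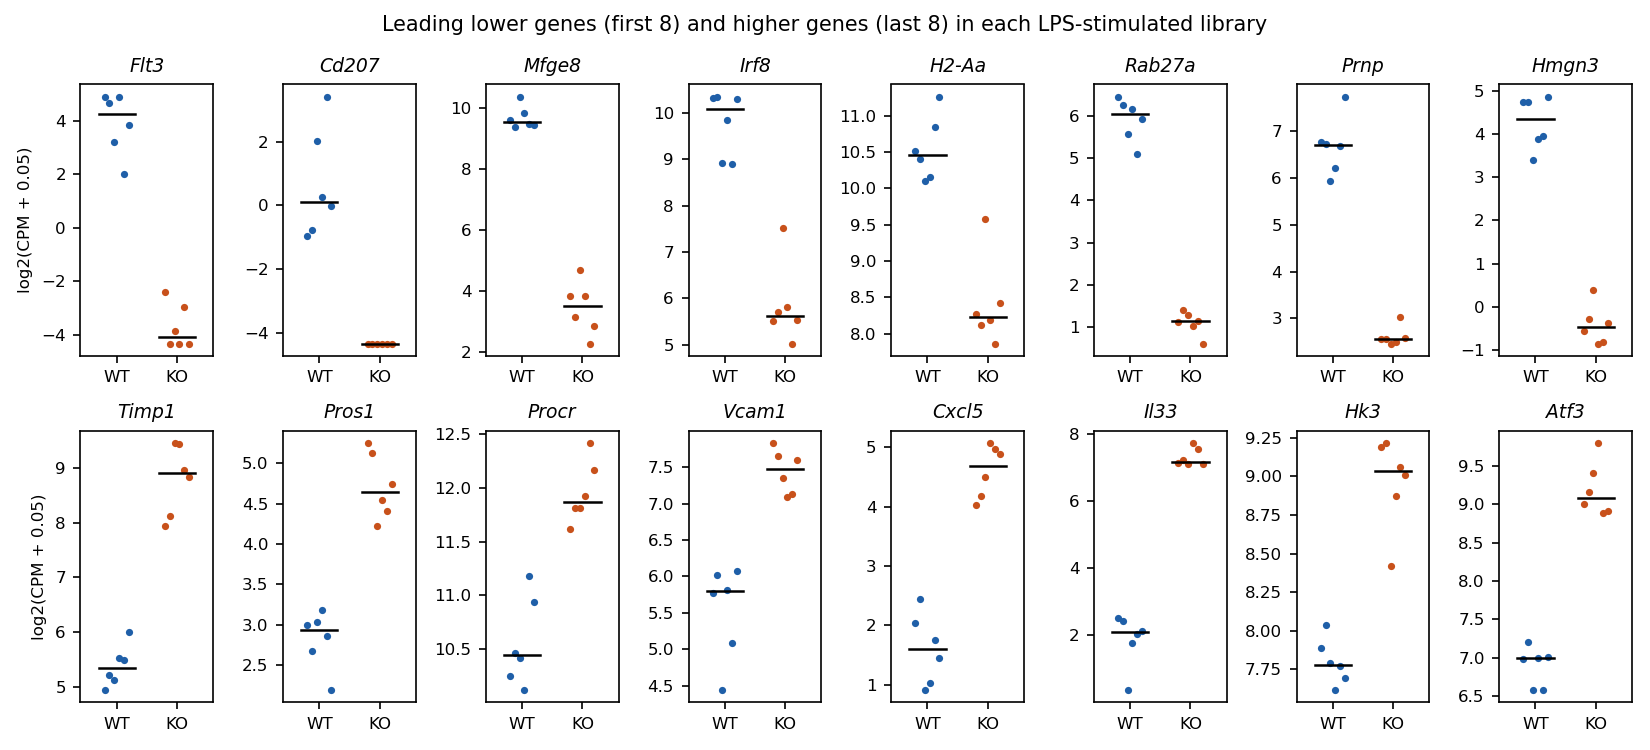
Level of 16 genes in each LPS-stimulated library, as log2(CPM + 0.05), with 6 points per genotype and a line at the median. In all 16 panels the AhR-KO points lie wholly below (upper row) or wholly above (lower row) the WT points.

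The alveolar macrophage markers that rose were Ear2, Ear1 and Car4. Ear2 and Ear1, ribonucleases of the eosinophil-associated family that alveolar macrophages express, had 521, 621 and 940 CPM and 23.6, 27.3 and 32.2 CPM in AhR-KO LPS, against 68.3, 169 and 238 CPM and 4.13, 7.62 and 12.7 CPM in WT LPS (log2 fold changes 1.98 ± 0.27 and 1.72 ± 0.26). They are close copies of each other, so their shares of the reads are uncertain. Car4, a membrane carbonic anhydrase, had 1453, 1789 and 2263 CPM against 2805, 3414 and 5475 CPM. Its log2 fold change of 1.0 ± 0.16 (adjusted p = 9.15e-05) was at the 2-fold minimum and fell below it without any one of libraries 21, 22, 32, 38, 39 and 40 (0.85 to 0.98). Of 25 tested scavenger receptors and C-type lectins 1 rose and 2 fell (median 0.07), of 24 lysosome genes 1 rose and 1 fell (median 0.23), of 8 Fc receptors 1 rose and 1 fell (median 0.22), and of 17 complement genes 1 rose and 4 fell (median −0.47). The shares called were 12%, 8.33%, 25% and 29.4%, against 8.36% of all genes. Cd36, a scavenger receptor for oxidized lipids, had 101, 241 and 297 CPM against 677, 1144 and 1581 CPM (2.36 ± 0.29, adjusted p = 4.06e-06). Fcgr1, the high-affinity receptor for IgG, had 227, 489 and 741 CPM against 543, 1187 and 1740 CPM (1.24 ± 0.28, adjusted p = 0.00308), and Ctsk, a lysosomal protease, rose by 1.15 (0.95 when scaled by total library size). Dcstamp, which is needed for the fusion of macrophages, had 350, 621 and 1048 CPM against 1269, 1578 and 2545 CPM, and Ms4a6d, a tetraspan membrane protein of macrophages, had medians of 1129 and 3176 CPM. The C5a receptor gene C5ar1, of the complement list, had 11.3, 24.3 and 67.6 CPM against 2.94, 4.01 and 7.61 CPM (−2.64 ± 0.38, adjusted p = 2.75e-05).

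Of 14 tested genes of the IL-6 and IL-10 families with STAT3 2 rose and 1 fell, which was Il22 (median 0.61), and of 16 of the IL-1 family 1 rose and 4 fell (median −0.28). Il6 had 357, 520 and 889 CPM in WT LPS and 1431, 1767 and 2573 CPM in AhR-KO LPS (1.70 ± 0.35, adjusted p = 0.00153). Il33, an alarmin of the IL-1 family, had 1.24, 4.22 and 5.74 CPM against 139, 146 and 213 CPM (5.33 ± 0.47, adjusted p = 5.85e-08). Clcf1, a cytokine that signals through gp130 as IL-6 does, had 2.95, 3.83 and 4.70 CPM against 8.81, 10.2 and 13.7 CPM. These genes separated the genotypes in every library. The subunits of IL-12 and IL-23 were less certain. Il12b, their shared subunit, had 30.4, 41.3 and 52.9 CPM against 57.7, 73.7 and 467 CPM (1.74 ± 0.50, adjusted p = 0.023), and Il23a had 5.98, 7.48 and 10.3 CPM against 9.08, 18.1 and 70.3 CPM (1.68 ± 0.46, adjusted p = 0.0155). The highest value of both was that of AhR-KO library 31. Without it the log2 fold changes were 0.86 (adjusted p = 0.191) and 1.03 (adjusted p = 0.101), and 1 of 5 genes of the IL-12 and IL-23 family was a DEG in place of 3.

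Of 25 tested chemokines 4 rose and none fell, with a median log2 fold change of 0.73. With DESeq2 5 rose and none fell, with limma-voom 7 rose and 1 fell, and with the slope of each library on gene length as a covariate 8 rose and 3 fell. Cxcl5, which attracts neutrophils, had 1.83, 3.0 and 5.39 CPM in WT LPS and 16.3, 26 and 33.5 CPM in AhR-KO LPS (2.97 ± 0.60, adjusted p = 0.00224). Ccl2, the monocyte attractant, had 101, 218 and 378 CPM against 138, 741 and 1625 CPM (1.75 ± 0.43, adjusted p = 0.00744), and its relative Ccl12 and the interferon-induced Cxcl9 had log2 fold changes of 3.16 ± 0.84 and 2.02 ± 0.59. Of these 4 genes only Cxcl5 did not overlap. Ccl12 was lost without library 39 (adjusted p = 0.0504) and Cxcl9 without 30, 37 or 40 (adjusted p = 0.0598, 0.0531 and 0.0666). Without WT library 38, 6 chemokines rose. Ccr2, the receptor for monocyte attractants, had a median of 4.73 CPM in WT LPS and 17.9 CPM in AhR-KO LPS (adjusted p = 0.00422).

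Among receptors and ligands that link macrophages to lymphocytes, some were lower and others higher. Ltb, the lymphotoxin beta chain, had 7.06, 9.58 and 19.9 CPM in WT LPS and 0.216, 0.542 and 1.51 CPM in AhR-KO LPS (−4.14 ± 0.45, adjusted p = 9.52e-07). Cd70, the ligand of CD27, had 1.65, 6.01 and 22.6 CPM against 0.384, 0.506 and 1.36 CPM, with a log2 fold change of −3.50 that was −2.84 without library 38. Il18rap, the accessory chain of the IL-18 receptor, had 1.35, 3.47 and 5.42 CPM against 0.384, 0.515 and 0.666 CPM, and the other chain, Il18r1, had 0.12 to 0.759 CPM in WT LPS and no count in AhR-KO LPS, at least 37.6-fold lower. In the same families some rose. Tnfsf8, the ligand of CD30, had 1.65, 5.15 and 10.8 CPM against 11, 19.1 and 27.2 CPM (1.78 ± 0.38, adjusted p = 0.00194), and Tnfsf15, a ligand of death receptor 3, rose by 2.17 (adjusted p = 0.0126). Of 13 tested TNF superfamily ligands 3 fell and 2 rose (median 0.28). Of 15 costimulatory and inhibitory ligands, a list that shares some of these genes, 2 fell and 2 rose (median 0.05).

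Of 29 tested type I interferon-stimulated genes 6 rose and none fell, 28 had a log2 fold change above 0 and the median was 0.78. Irf7, the transcription factor that amplifies the response, had 1497, 1509 and 1755 CPM in WT LPS and 3225, 3406 and 4433 CPM in AhR-KO LPS (1.18 ± 0.35, adjusted p = 0.0256). Rsad2, which encodes the antiviral enzyme viperin, had 296, 577 and 809 CPM against 1099, 1238 and 2336 CPM (1.27 ± 0.35, adjusted p = 0.0152). Mx1, an antiviral GTPase, had 11.3, 35.3 and 54.3 CPM against 72.2, 124 and 163 CPM (1.88 ± 0.50, adjusted p = 0.012), and Xaf1, a promoter of cell death, had a log2 fold change of 1.01 ± 0.24. These 4 did not overlap between the genotypes, whereas Cmpk2, a mitochondrial nucleotide kinase next to Rsad2 in the genome, did (1.12 ± 0.29). The number called depended on the scaling, the tool and single libraries. It was 7 with DESeq2, 11 with limma-voom, 13 with the slope on gene length, 1 when scaled by total library size (median 0.56), 3 without WT library 29 or without AhR-KO library 32, and 4 without WT library 30. Irf7 and Rsad2 were lost without library 32 (adjusted p = 0.0564 and 0.0507), Cmpk2 without 29 (log2 fold change 0.98) and Xaf1 without 29, 30, 39 or 40 (0.89, 0.96, 0.98 and 0.98).

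Of 16 tested interferon-inducible GTPases, which attack the vacuoles of microbes, 6 rose, none fell and all 16 had a log2 fold change above 0 (median 1.17, and 0.93 with total library size). Gbp3 had 201, 326 and 468 CPM in WT LPS and 593, 829 and 1078 CPM in AhR-KO LPS (1.32 ± 0.28, adjusted p = 0.002). Gbp2b had 1.90, 10.8 and 17.1 CPM against 33.1, 52.9 and 87.9 CPM (2.59 ± 0.51, adjusted p = 9.64e-04), and Iigp1 had 2.02, 15 and 37.5 CPM against 49.7, 111 and 134 CPM (2.55 ± 0.67, adjusted p = 0.012). Several of these genes have close copies, among which the reads may be split. The genotypes did not overlap for these 3 genes. The number called was 4 when scaled by total library size, 8 with DESeq2, 9 with limma-voom and 11 with the slope on gene length. Between 4 and 7 members were called when 1 library was left out, with 4 without any one of 23, 24, 29, 32 and 37.

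**Figure D4:**
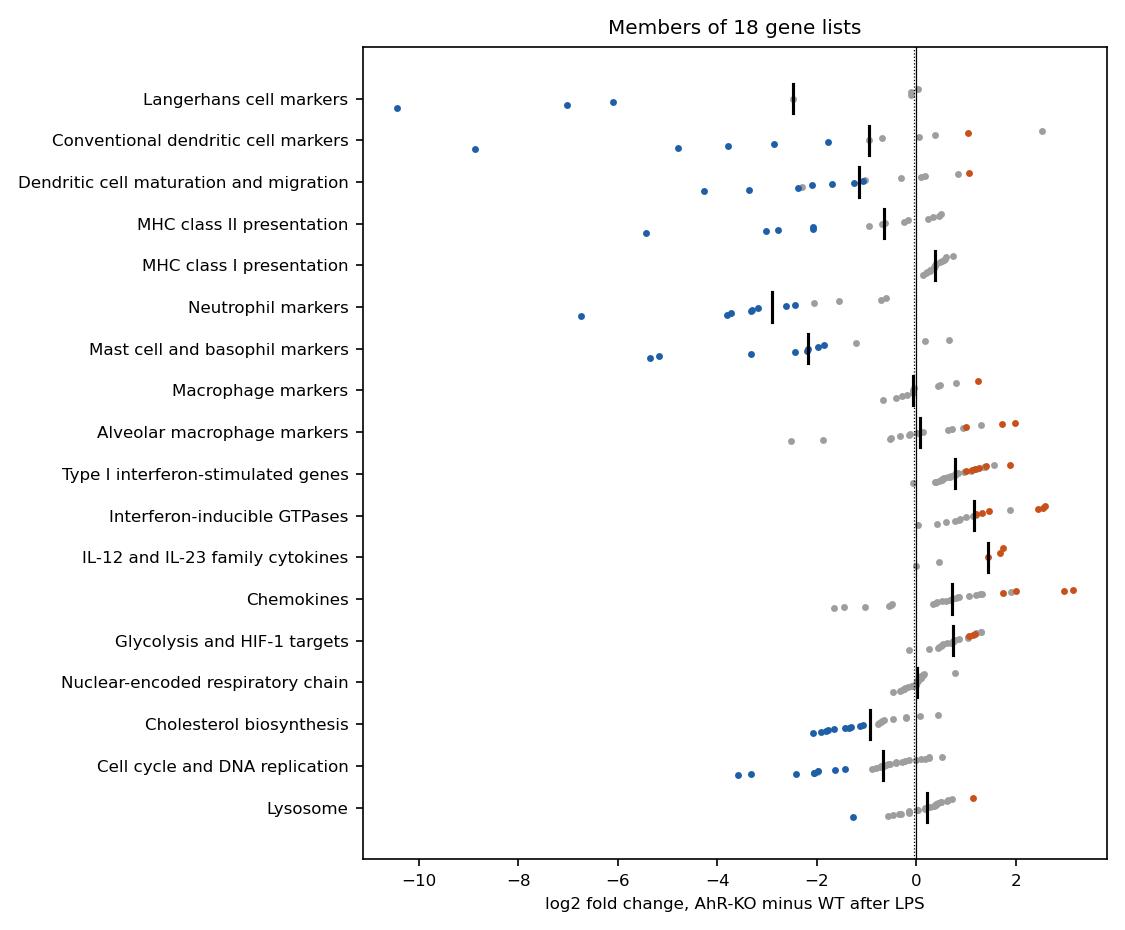
Log2 fold change between AhR-KO LPS and WT LPS for every tested member of 18 gene lists, with higher DEGs in orange, lower DEGs in blue, other genes in grey, a black bar at the median of each list and a dotted line at the median of all tested genes (−0.05). Dendritic, Langerhans, neutrophil and mast cell lists extend far to the left, whereas interferon, GTPase, chemokine and glycolysis lists lie mostly to the right by smaller amounts.

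Of 21 tested genes of glycolysis and other HIF-1 targets 3 rose and none fell, and 20 had a log2 fold change above 0 (median 0.75, and 0.51 with total library size). Hk3, a hexokinase of myeloid cells, had 196, 220 and 263 CPM in WT LPS and 342, 525 and 594 CPM in AhR-KO LPS (1.18 ± 0.12, adjusted p = 3.99e-07). Slc2a1, the glucose transporter GLUT1, had 549, 738 and 1194 CPM against 935, 1928 and 2495 CPM (1.14 ± 0.24, adjusted p = 0.00184). With total library size both were just short of 2-fold (0.96 and 0.92), and the count of the list was then 1. It was 2 with limma-voom, 5 with DESeq2, 7 with the slope on gene length, 5 without library 23 or 24, and 2 without 31, 32 or 38. None of 26 respiratory chain genes passed with edgeR, DESeq2 or limma-voom (1 had an unadjusted p below 0.05, median 0.01, and −0.18 when scaled by total library size). Cholesterol synthesis was lower in 10 of 20 genes and higher in none (median −0.92), as for Cyp51, a sterol demethylase, with 68.1, 95.3 and 124 CPM against 16.3, 23.4 and 28 CPM (−2.07 ± 0.14, adjusted p = 1.65e-09). Fdft1, or squalene synthase, and Hmgcs1, which starts the pathway, fell by 1.30 and 1.34. Cyp26b1, which breaks down retinoic acid, had 1.44, 5.51 and 10.7 CPM against 6.27, 24.6 and 65.5 CPM (2.52 ± 0.66, adjusted p = 0.0108).

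Several lists of macrophage function held no DEG by edgeR, DESeq2 or limma-voom. They were the enzymes of nitric oxide, arginine and itaconate metabolism (10 genes, of which 5 had an unadjusted p below 0.05, median log2 fold change 0.47), the genes of alternative activation (10 genes, 1 below 0.05, median 0.25) and the LXR targets of cholesterol efflux (15 genes, 1 below 0.05, median 0.23, and −0.01 when scaled by total library size). Of 35 genes of the Toll-like receptor and NF-kB pathway 1 rose and 2 fell, a share close to that of all genes.

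Of 30 tested genes of the cell cycle and DNA replication 8 fell and none rose (median −0.67). The summed level of the list overlapped between the genotypes, at 299 to 409 CPM in WT LPS and 279 to 392 CPM in AhR-KO LPS. Plk1, a mitotic kinase, had 0.294, 0.626 and 0.942 CPM in WT LPS and 0, 0.0467 and 0.101 CPM in AhR-KO LPS (−3.58 ± 0.42, adjusted p = 2.02e-06). Ccnb2, a mitotic cyclin, had 1.05, 1.33 and 2.42 CPM against 0, 0.148 and 0.263 CPM. Rrm2, which supplies deoxynucleotides, fell by 1.62, and Cenpa, the histone of the centromere, had 12.6, 26.3 and 62.1 CPM against 3.84, 4.87 and 9.11 CPM (−2.40 ± 0.39, adjusted p = 1.26e-04). Without LPS the medians of Plk1 were 29.1 CPM in WT and 36.4 CPM in AhR-KO, and those of Ccnb2 were 110 and 103 CPM.

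Among the increases with the smallest p was Atf3, a stress-induced transcription factor, which had 95.7, 128 and 148 CPM in WT LPS and 472, 541 and 885 CPM in AhR-KO LPS (2.32 ± 0.19, adjusted p = 2.01e-08). Igsf8, a partner of tetraspanins, had 180, 194 and 205 CPM against 380, 408 and 437 CPM (1.08 ± 0.10, adjusted p = 1.12e-07, and 0.86 when scaled by total library size). Maff, a small leucine zipper factor, had 78.4, 84.7 and 94.6 CPM against 146, 174 and 182 CPM, which at a log2 fold change of 0.99 ± 0.09 (adjusted p = 7.56e-08) was just short of a DEG. Ptgs2, the inducible cyclooxygenase, belongs to the eicosanoid genes and is given only because it was among the most abundant increases, with 408, 499 and 917 CPM against 1023, 2476 and 5992 CPM. Its antisense neighbour Ptgs2os2 had medians of 11.8 and 48.7 CPM.

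Genes near the targeted locus were looked at on their own, without a test of their share. Within 10 Mb of Ahr on chromosome 12, 12 of 63 tested genes were DEGs (19.05%, against 8.36% of all genes), among them Ahr itself, Cmpk2 and Rsad2. The allele was made in 129 cells, and how much 129 sequence flanks it in these mice was not tested. Acp1, a small tyrosine phosphatase, had 29.1, 32 and 36.9 CPM in WT LPS and 6.06, 6.32 and 7.38 CPM in AhR-KO LPS (−2.31 ± 0.12, adjusted p = 5.45e-12), the smallest p of all genes after Wdfy1. Slc26a4, an anion exchanger, had 0.0734, 0.577 and 1.25 CPM against 8.36, 14 and 18.1 CPM (4.31 ± 0.54), and Atxn7l1, an ataxin relative, rose by 1.46. Scin, an actin-severing protein, and Tspan13, a tetraspanin, had medians of 293 and 118 CPM against 53.6 and 15.2 CPM. Etv1, a transcription factor, Ispd, Agmo, an enzyme that cleaves ether lipids, and Fam110c were lower at adjusted p of 0.015, 0.0259, 0.042 and 0.0442, and each call depended on single libraries. Etv1 was lost without library 29 (adjusted p = 0.0616) and Ispd without 31, 32, 37 or 40 (at most 0.0656). Agmo, at a median of 0.067 CPM in WT LPS, was lost without any library except 32 and 38 (at most 0.0979), and its log2 fold change of −2.30 was −3.60 without 32. Fam110c was lost without 21, 22, 23, 24, 29, 32, 37, 38 or 39 (at most 0.0989). Away from this region, on chromosome 1, Wdfy1, an endosomal protein of TLR3 and TLR4 signalling, had 5.21, 5.88 and 8.74 CPM against 89.5, 167 and 189 CPM (4.66 ± 0.22, adjusted p = 4.25e-12), the smallest p of all genes.

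The difference between the genotypes after LPS was then set beside that without stimulation, where 744 genes were DEGs (4.48% of those tested, 152 higher and 592 lower). Of the 1027 lower DEGs after LPS, 351 were lower DEGs without stimulation as well (34.2% of the former and 59.3% of the latter), and of the 360 higher DEGs, 64 were higher DEGs without it (17.8% and 42.1%). Opposite calls were made for 15 genes. A test of the interaction, the difference between the 2 log2 fold changes, was called for 713 genes (4.3%), among them 287 of the lower and 92 of the higher DEGs. This count was 1125 with DESeq2, 1201 with the runs of library numbers as a factor and 2793 with the slope on gene length. Mfge8, Flt3, Epcam, H2-Eb1, Ltb, Acp1, Timp1, Cav1 and Wdfy1 were DEGs of the same direction in both states. The lower neutrophil and mast cell lists were likewise found without LPS. There 10 of 12 neutrophil markers were lower (median −3.30, interaction called for none), with sums of 1699 to 12723 CPM in WT and 261 to 810 CPM in AhR-KO. Of 11 mast cell and basophil markers 8 were lower (median −2.19, interaction called for 1).

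Without stimulation, 6 of the 29 interferon-stimulated genes were lower in AhR-KO and none was higher (median log2 fold change −0.78), and the interaction was called for 14 of the 29. Irf7 had a median of 30.7 CPM in unstimulated WT and 7.26 CPM in unstimulated AhR-KO (−1.46, adjusted p = 0.01), and the interaction was 2.64 (adjusted p = 0.00221). Rsad2 and Cmpk2 behaved alike, with log2 fold changes of −1.58 and −1.29 without stimulation. Unstimulated AhR-KO library 27 stood within the WT range for these 3 genes, as for Irf7 with 36.9 CPM against 4.71 to 11.9 CPM in the other AhR-KO and 25.6 to 52.3 CPM in the WT libraries. Without it, an omission chosen after the data were seen, 14 of the 29 genes were lower without stimulation (median −1.46), the interaction was called for 19, and that of Irf7 was 3.37. Il6, Ccl2 and Clcf1 did not pass without stimulation and had interactions of 2.71, 3.02 and 2.14. Il12b was lower without stimulation at levels below 1 CPM (−3.20, adjusted p = 0.004). Other genes were lower in AhR-KO without stimulation and did not pass after LPS. Gem, a small GTPase, had medians of 16.9 and 0.652 CPM without stimulation and of 102 and 80.8 CPM after LPS (interaction 4.38, adjusted p = 4.09e-07). Fam43a, Tfrc, the transferrin receptor, and Hdc followed the same pattern, with interactions of 3.69, 2.24 and 3.79. A decrease called after LPS and not without it, with the interaction called as well, was found for Ffar2, a receptor for short-chain fatty acids, with medians of 72.3 and 82.1 CPM without stimulation and of 7.40 and 0.818 CPM after LPS (interaction −3.49, adjusted p = 3.34e-06), and for Tspan14, Gga2, Cyp51, Plk1, Ccnb2, Rrm2 and Cenpa.

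**Figure D5:**
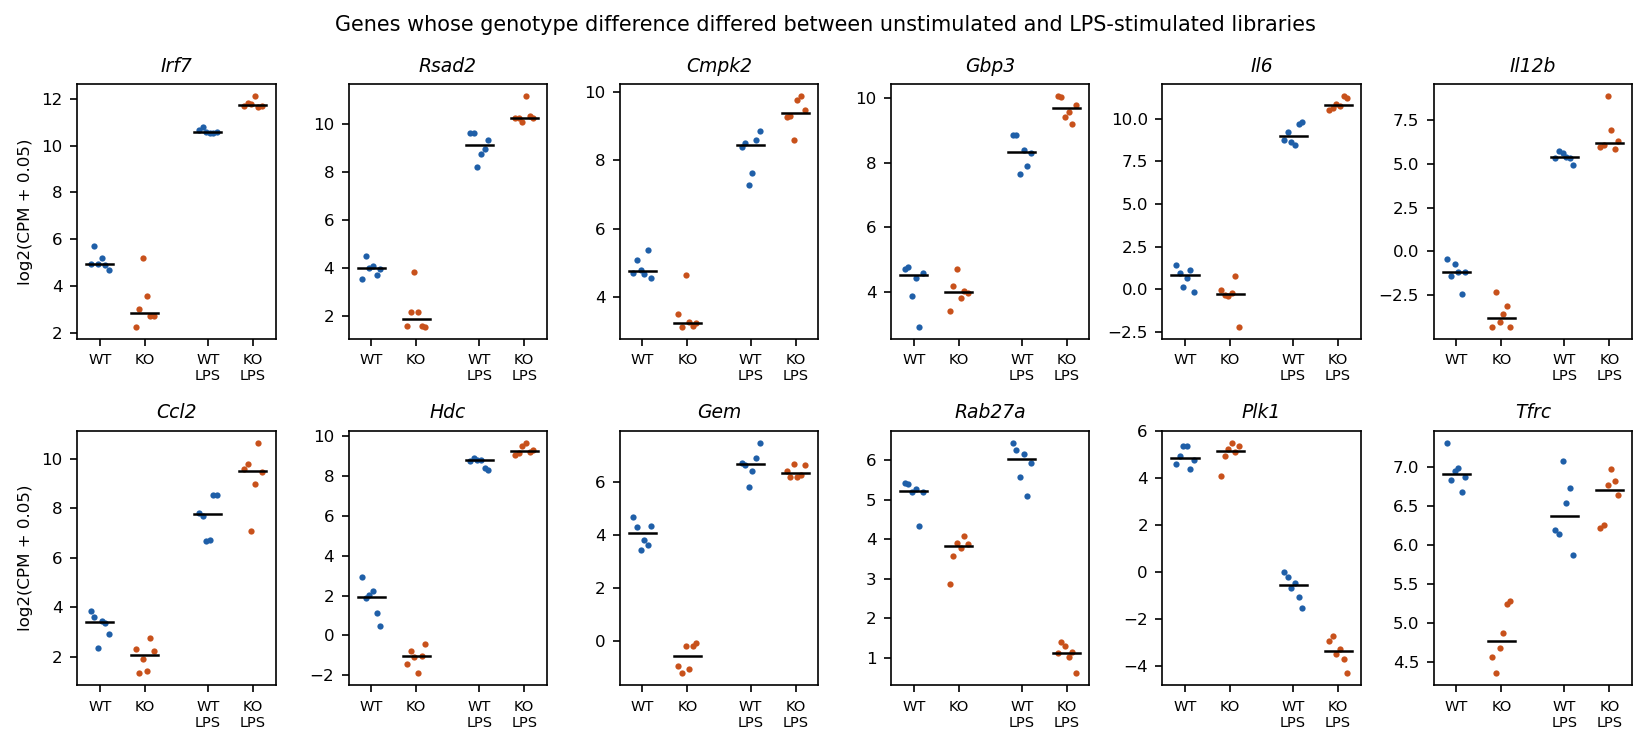
Level of 12 genes in all 24 libraries, as log2(CPM + 0.05), in unstimulated WT and AhR-KO and in LPS-stimulated WT and AhR-KO, with 6 points per group and a line at the median. Irf7, Rsad2 and Cmpk2 were lower in AhR-KO without stimulation and higher after LPS, Hdc, Gem and Tfrc were lower without stimulation and did not pass after LPS, Plk1 was lower after LPS, and Rab27a was lower in both states.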

How the data were processed

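Polyadenylated RNA of 24 BMDM cultures was sequenced, 6 per group. The authors deposited raw counts per gene: by the study's methods and processing notes, reads were aligned to mm10 with GSNAP and read pairs were counted by strand with featureCounts 2.0.1 on Ensembl 98, with a minimum of mapping quality. Replicates are named by the library numbers of the labels. Of 55421 genes, 16593 passed edgeR's filter on low counts. Counts were scaled by TMM and tested with edgeR 4.0.16 (R 4.3.3), quasi-likelihood F-test over all 4 groups, two-sided, with Benjamini-Hochberg adjustment over all tested genes. A DEG needed a 2-fold change or more and an adjusted p not above 0.05. The interaction had no fold minimum. Depth was 47904679 to 70074584 counts per library and the biological coefficient of variation 49.1%, so spread between libraries and not counting set the precision. None of 30 pairs of replicate LPS libraries was as alike as counting noise allows. Floors cover counting error only.

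The members and lists were chosen with earlier results of these data known, and the lists were written from general knowledge. Genes named are Ahr and its targets, the 15 largest DEGs of each direction whose mean reached 1 CPM and whose genotypes did not overlap, the 15 most abundant DEGs of each direction, up to 6 DEGs per list with the smallest p, list markers, DEGs within 10 Mb of Ahr and the 10 smallest p of each direction in the genotype and the interaction test, from which a part is shown. Chosen after their values were seen were the 4 promoters. Promoters were taken from RefSeq, and a comparison of motif shares between gene sets was void, since fewer than 80% of the genes in each set had a window (63.5% of tested genes). Overlaps of exons were read from GENCODE vM21. On simulated counts in which 200 of 16294 genes carried a true log2 change of 2, the edgeR test found 64% for the genotype effect after LPS with 4 unchanged genes called, and 47.5% for the interaction. Alternatives were DESeq2 1.42.0 and limma-voom (limma 3.58.1), other scalings, filters and covariates, fewer libraries and each of the 12 libraries left out. Lipid mediators, chromatin accessibility and animal experiments were not analysed here.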

Additional observations from a re-analysis of the deposited data

Results flagged for a closer look

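Among 272 groups of 6 libraries examined, 20 held a library set apart from the other 5 by a gap beyond Dixon's critical value, and chance alone gives such a flag in about 1 of 20 groups. Gene levels were examined on a log2 scale and library measures without a transformation. AhR-KO LPS library 31 accounted for 6 of them. It was high for Epcam (0.315 CPM), Irf8 (183 CPM), H2-Aa (765 CPM), H2-Eb1 (275 CPM) and Il12b (467 CPM), and low for Iigp1 (49.7 CPM). AhR-KO LPS library 39 was high for Ngp (46.7 CPM), Clcf1 (13.7 CPM), Prnp (8.10 CPM) and the share of counts in its 20 most abundant genes (19.5%), and low for Wdfy1 (89.5 CPM). AhR-KO LPS library 32 was high for Irf7 (4433 CPM), Rsad2 (2336 CPM) and Dcn (21.2 CPM). Of the remaining AhR-KO LPS libraries, 23 was high for Gm8221 (0.101 CPM) and 24 was low for Scin (44.0 CPM). In WT LPS, library 29 was low for Il33 (1.24 CPM) and Cav1 (722 CPM), library 37 was low for Rtn1 (0.12 CPM), and library 38 was high for Wdfy1 (8.74 CPM).

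For 58 of the genes described, the difference between the genotypes after LPS differed from that without stimulation by edgeR's interaction test (adjusted p of at most 0.05). The values are the log2 fold change after LPS minus that without stimulation, so a positive value means that AhR-KO was higher relative to WT after LPS than before it. Positive values were found for Ahr (3.29), Tiparp (1.48), Il15ra (1.17), Hdc (3.79), Fcgr1 (1.38), Irf7 (2.64), Rsad2 (2.85), Cmpk2 (2.42), Xaf1 (1.62), Gbp3 (1.59), Iigp1 (3.43), Il6 (2.71), Il12b (4.94), Il23a (5.39), Clcf1 (2.14), Il33 (2.75), Tnfsf8 (3.11), Ccl2 (3.02), Ccl12 (4.95), Spp1 (1.66), Dcn (3.96), Vcam1 (1.89), Edn1 (3.33), Hk3 (0.97), Atf3 (1.45), Maff (1.28), Igsf8 (1.17), Ptgs2 (2.90), Ptgs2os2 (2.74), Scin (2.17), Fam43a (3.69), Gem (4.38) and Tfrc (2.24). Negative values were found for Mfge8 (−2.24), Irf8 (−2.97), Cd24a (−2.22), Socs2 (−1.46), Relb (−1.05), Cyp51 (−2.39), Fdft1 (−1.52), Hmgcs1 (−1.47), Haao (−4.03), Plk1 (−3.73), Ccnb2 (−3.36), Rrm2 (−1.73), Cenpa (−2.59), Rab27a (−3.44), Prnp (−2.52), Hmgn3 (−3.65), Limd2 (−0.99), Ppm1j (−2.49), Slc46a3 (−1.98), Ffar2 (−3.49), Tspan14 (−2.29), Gga2 (−1.89), Tspan13 (−2.05), Ispd (−1.82) and Agmo (−3.27).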

How the results depend on the processing

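Under 11 alternatives and 12 omissions of 1 library no called difference of a named gene after LPS changed sign. Fam43a (0.19) and Tfrc (0.16), not DEGs after LPS, reached −0.02 and −0.07. The count of 1387 DEGs ranged from 1245 to 1408 without 1 library and was 1065 with a minimum mean of 1 CPM, 1663 with DESeq2 and also with the runs as a factor, 1997 with the slope on gene length and 2096 by adjusted p alone. The 360 higher DEGs became 236 when scaled by total library size, 696 with the slope on gene length as a covariate and 718 by adjusted p alone. The interaction, called for 713 genes, was called for 1125 with DESeq2, 1201 with the runs of 8 library numbers as a factor and 2793 with the slope on gene length. The alternatives shared 73.4% to 98.9% of the DEGs, and the cause of the differences was not tested. Of 122 DEGs among 129 genes named, 99 kept their call throughout and 23 lost it at least once, and 47 of 58 interactions kept theirs. No paired analysis was made, because no library number was shared between groups and no label pairs cultures. Whether stimulated and unstimulated cultures came from the same animals was not tested, so the interaction calls rest on separate libraries. For genes without a count in AhR-KO LPS, depth allows only a bound on the decrease.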
